A study of Arabidopsis thaliana with 6 samples.

Results

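Of 22746 probe sets on the Arabidopsis array, 162 read clearly lower on both arrays of seedlings that overexpress TaVAP. The comparison was with 1 of 2 wild-type arrays and 1 of 2 atvap mutant arrays. A probe set is the group of array probes that reports on 1 transcript or a few. It was a member when the higher of both TaVAPOE values lay at least 1 log unit below the lower of atvap replicate 2 and WT replicate 2, and that distance is called the gap here. Organelle genes and the loci AT1G57650, AT5G44420, AT2G26020, AT5G47180 and AT1G51270 were left out, which removed 4 of 166 probe sets that met the threshold (0.73% of all tested, and 0.712% for the members). Of the members, 88 have 1 gene in the platform annotation, 3 have several and 71 are unnamed here. The exclusion of organelle genes reaches only named probe sets.

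Whole plants of 3 genotypes were profiled at 5 days of age after growth on OS medium under 16 h of light and 8 h of dark, with no treatment. The TaVAPOE plants are the wild type carrying TaVAP overexpression, the second genotype is labelled atvap mutant, and the third is the wild type (WT), with 2 arrays each that the labels call biological replicates. The labels name no promoter, no number of transgenic lines, no mutated locus and no accession. The log base of the values is not stated, so levels and differences are given in log units.

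VAP proteins sit in the membrane of the endoplasmic reticulum, where they bind other proteins and hold this membrane close to others. With 71 members unnamed here, the members were not examined as a pathway. They include genes of plant immunity, jasmonate breakdown, sugar transport and cell wall remodelling, which are background descriptions of known roles and not results of these arrays. In whole plants, fewer cells of a type and less RNA per cell cannot be told apart.

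The arrays differ in how far they can be used. Across probe sets, Pearson's r was 0.94 to 0.98 among the 4 arrays of the rule. WT replicate 1 reached 0.52 to 0.53 with them and atvap replicate 1 reached 0.19. Of 20 cell type marker genes listed, 4 had a probe set named with 1 gene here. The leaf genes RCA and LHCB4.1 read at least 8.92 on 5 arrays but 4.07 and 2.62 on atvap replicate 1. The root hair gene EXPA7 read 1.69 to 3.79 and the guard cell gene FMA 0.71 to 3.45 over the 6 arrays. None of these 4 is a member, and the other markers, which have no such probe set, could not be looked up.

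The gap was between 1 and 1.5 log units for 113 members, between 1.5 and 2 for 34, and at least 2 for 15, with a median of 1.31. The mean of atvap replicate 2 and WT replicate 2 was below 3 log units for 39 members (24.1%, against 58.8% of all probe sets), between 3 and 5 for 63 (38.9%, against 29.2%), and 5 or more for 60 (37.0%, against 12.1%). Members were thus brighter on these arrays than the whole array, and the rule asked for high values there. The TaVAPOE arrays differed from each other by a median of 0.19 log units over the members and by 0.19 over all probe sets. Both TaVAPOE values of 45 members (27.8%, against 21.2% of all probe sets) lay below 1.66, the 20th percentile of all values, where the array may read background. With all values raised to 1.66, 131 members were still at least 1 log unit apart. These values chose the members and carry no test.

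AT3G48640 stood farthest apart. It read 1.97 and 2.51 log units in TaVAPOE, 1.98 and 8.53 in atvap, and 6.51 and 8.16 in WT. Both WT arrays and atvap replicate 2 were far above both TaVAPOE arrays, and atvap replicate 1 lay among the TaVAPOE values. In the fit to 6 arrays its TaVAPOE minus WT difference was -5.09 ± 2.03 log units (limma, moderated SE, n = 2 arrays per genotype). The next members by gap are unnamed here: 266385_at read 3.77 and 3.91 in TaVAPOE, 2.96 and 7.41 in atvap, and 6.33 and 8.07 in WT. As for AT3G48640, only atvap replicate 1 failed to lie above TaVAPOE. The probe set 266251_s_at, which may detect several transcripts, read 0.51 and 0.97 in TaVAPOE, 2.93 and 4.22 in atvap, and 3.26 and 3.90 in WT. For it, all 4 other arrays lay above both TaVAPOE arrays.

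Among the 25 named genes with the largest gaps, WT replicate 1 lay above both TaVAPOE arrays for 10 (41.4% of all probe sets did) and atvap replicate 1 for 7 (48.4% of all did). AT1G02300, a cathepsin B-like protease gene, read 2.95 and 2.71 in TaVAPOE, 2.29 and 5.35 in atvap, and 3.31 and 5.31 in WT. AT1G44030 read 0.77 and 0.66 in TaVAPOE, 3.06 and 2.70 in atvap, and 2.72 and 2.92 in WT. All 4 other arrays were above TaVAPOE for this gene, and its TaVAPOE minus WT difference over 6 arrays was -2.11 ± 0.45 (limma, moderated SE). Its probe set may also detect other transcripts (10 members, 6.2%, are of the s_at or x_at classes that can, against 4.66% of all), and with values raised to 1.66 its gap was 1.04. AT1G50290 read 1.08 and 0.79 in TaVAPOE, 3.86 and 3.73 in atvap, and 1.04 and 3.22 in WT. Here both atvap arrays were high, while WT replicate 1 lay within the TaVAPOE range. AT5G13200, a GRAM-domain gene that responds to abscisic acid, read 5.53 and 5.51 in TaVAPOE, 2.68 and 7.65 in atvap, and 5.43 and 7.52 in WT. Its values on WT replicate 1 and atvap replicate 1 were below both TaVAPOE arrays.

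**Figure D1:**
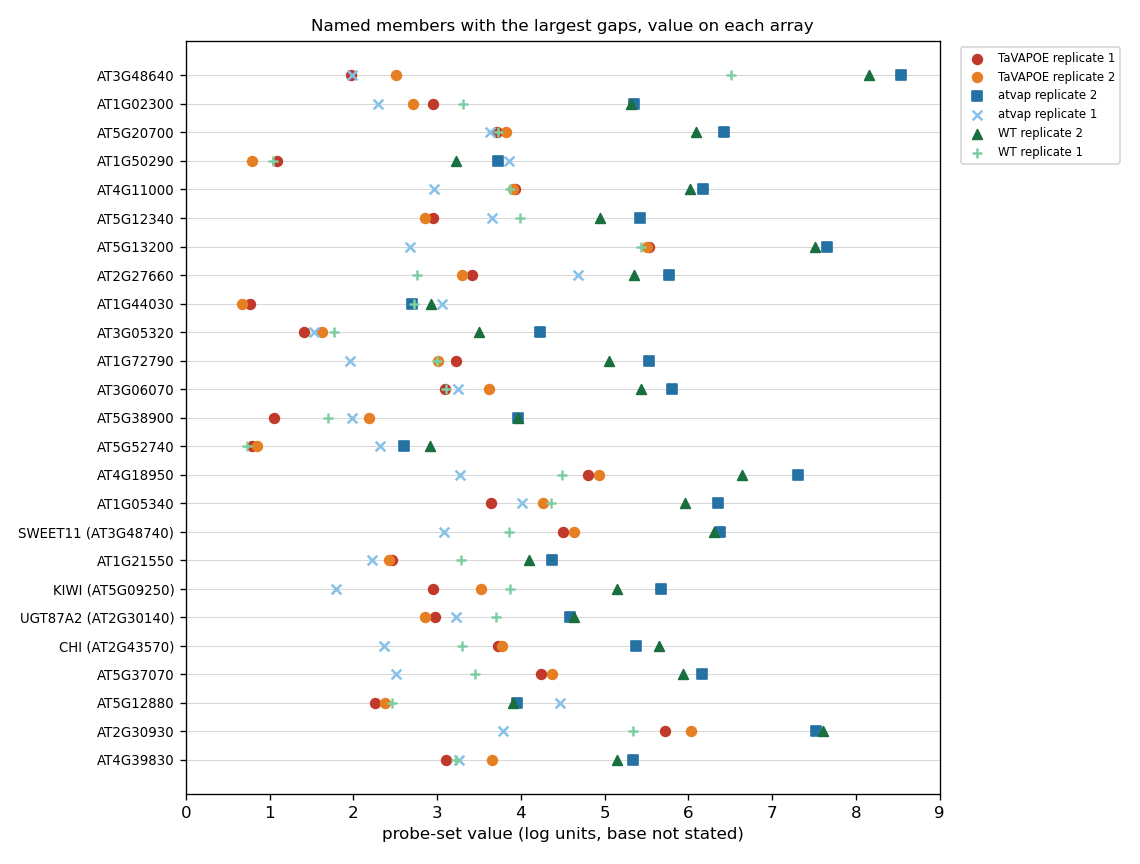
Value of the 25 named members with the largest gaps on each of the 6 arrays, in log units whose base is not stated, 1 point per array, ordered from the largest gap (AT3G48640) at the top. Circles (TaVAPOE) lie left of the filled square (atvap replicate 2) and the filled triangle (WT replicate 2) in every row, as the rule requires, while the crosses of atvap replicate 1 and the plus signs of WT replicate 1 fall on either side.

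The 10 immune receptor and kinase genes among the members ranged from dim to bright, with a mean of atvap replicate 2 and WT replicate 2 below 3 log units for 4, between 3 and 5 for 3 and at 5 or more for 3. TIR-NBS-LRR proteins are intracellular receptors that detect pathogen molecules. AT1G17600, such a receptor gene, read 1.29 and 1.24 in TaVAPOE, 3.30 and 2.60 in atvap, and 3.94 and 2.70 in WT. Every other array was above both TaVAPOE arrays, but with values raised to 1.66 its gap was 0.94, below the threshold. Where the TaVAPOE mean was below 2, WT replicate 1 was above both TaVAPOE arrays for 76.9% of all probe sets. For atvap replicate 1 that share was 88.8%, so such readings are common at this level. AT5G40100, of the same class, read 1.55 and 0.95 in TaVAPOE, 2.33 and 3.02 in atvap, and 0.84 and 2.62 in WT. WT replicate 1 was the lowest of all, and with values raised to 1.66 the gap of AT5G40100 was 0.96. AT1G61100, which encodes a TIR-domain protein, read 3.62 and 3.64 in TaVAPOE, 3.07 and 5.12 in atvap, and 3.60 and 4.94 in WT. Replicate 1 of both atvap and WT lay below TaVAPOE for it.

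Of 7 kinase genes, WT replicate 1 was above both TaVAPOE arrays for 5 (41.4% of all probe sets were). The whole-array share was 76.9% where the TaVAPOE mean was below 2, as for AT1G51890 and AT2G37840 among the 5. It was 33.4% between 2 and 4, where the rest of the 5 lay. The 7 are 3 leucine-rich repeat receptor-like kinases, an S-locus lectin type, a Raf-like kinase, an ATG1-type kinase of autophagy and a further protein kinase. AT1G74360, a leucine-rich repeat type, read 2.24 and 2.18 in TaVAPOE, 3.13 and 3.90 in atvap, and 3.05 and 3.58 in WT. Both TaVAPOE values were below the other 4, while atvap and WT overlapped. AT1G51890, of the same type, read 1.26 and 1.36 in TaVAPOE, 4.80 and 2.70 in atvap, and 2.51 and 2.49 in WT. There was no overlap between any of the groups, but with values raised to 1.66 its gap was 0.83, below the threshold. AT1G53430 read 3.61 and 3.82 in TaVAPOE, 2.43 and 5.45 in atvap, and 2.32 and 5.21 in WT, and replicate 1 of both other genotypes was below TaVAPOE. AT4G18950, the Raf-like kinase gene, was the brightest of the 7, at 4.80 and 4.93 in TaVAPOE, 3.27 and 7.30 in atvap, and 4.49 and 6.64 in WT.

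Calcium and defence genes gave a mixed picture on the arrays the rule did not use. AT5G39670, which encodes a calmodulin-like calcium sensor, read 3.81 and 3.79 in TaVAPOE, 2.88 and 5.14 in atvap, and 2.97 and 5.72 in WT. GLR2.8, a glutamate receptor-like channel, read 2.16 and 2.40 in TaVAPOE, 4.39 and 3.56 in atvap, and 2.81 and 3.96 in WT, with no overlap between TaVAPOE and the others. CHI, a class IV chitinase (an enzyme that cuts fungal chitin), read 3.72 and 3.77 in TaVAPOE, 2.36 and 5.37 in atvap, and 3.30 and 5.65 in WT. The chitinase gene AT4G01700 read 2.91 and 3.21 in TaVAPOE, 2.31 and 4.23 in atvap, and 3.52 and 4.23 in WT. WT replicate 1 was thus above TaVAPOE for AT4G01700 and below it for CHI.

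Both members that encode jasmonate hydroxylases, enzymes that inactivate the hormone jasmonate, read low on WT replicate 1. AT5G05600 read 5.00 and 4.83 in TaVAPOE, 2.34 and 6.87 in atvap, and 4.56 and 6.48 in WT. AT2G38240 read 3.35 and 2.83 in TaVAPOE, 2.96 and 5.59 in atvap, and 1.55 and 4.83 in WT. GRX480, a glutaredoxin that binds TGA transcription factors and links salicylate to jasmonate responses, read 6.09 and 6.22 in TaVAPOE, 1.99 and 7.35 in atvap, and 4.65 and 7.23 in WT. For all 3 genes WT replicate 1 lay below both TaVAPOE arrays, so the genotypes overlap.

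Among bright members with roles in transport, cell wall and stress, the gap was between 1 and 2 log units. SWEET11, a sucrose exporter of the phloem, read 4.51 and 4.63 in TaVAPOE, 3.08 and 6.38 in atvap, and 3.85 and 6.31 in WT. SRC2, a C2-domain protein named for cold regulation, read 6.71 and 7.06 in TaVAPOE, 2.81 and 8.50 in atvap, and 6.34 and 8.16 in WT. EXLA1, an expansin-like protein, read 6.43 and 6.40 in TaVAPOE, 4.22 and 7.61 in atvap, and 5.41 and 7.74 in WT. WT replicate 1 and atvap replicate 1 were below TaVAPOE for these 3 genes. XTH18, an enzyme that cuts and rejoins cell wall xyloglucan, read 4.92 and 4.86 in TaVAPOE, 2.91 and 6.52 in atvap, and 5.57 and 6.11 in WT. Both WT arrays were above both TaVAPOE arrays for XTH18, while atvap replicate 1 was below them.

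Metabolic genes were mostly of middle or low brightness. UGT87A2, a glycosyltransferase, read 2.98 and 2.85 in TaVAPOE, 3.22 and 4.59 in atvap, and 3.70 and 4.63 in WT, with both TaVAPOE values below the other 4 and overlap between atvap and WT. AT5G38710, a proline dehydrogenase gene, read 2.44 and 1.77 in TaVAPOE, 3.39 and 4.59 in atvap, and 1.90 and 3.93 in WT, with WT replicate 1 between the TaVAPOE arrays. AT1G68620, a carboxylesterase gene, read 1.83 and 2.57 in TaVAPOE, 3.23 and 4.01 in atvap, and 4.71 and 5.01 in WT, with no overlap between any of the groups. KIWI, a transcriptional coactivator, read 2.95 and 3.52 in TaVAPOE, 1.79 and 5.68 in atvap, and 3.88 and 5.14 in WT. Of the 38 members whose role was assigned from background knowledge, WT replicate 1 was above both TaVAPOE arrays for 17, a share near the 41.4% of all probe sets.

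**Figure D2:**
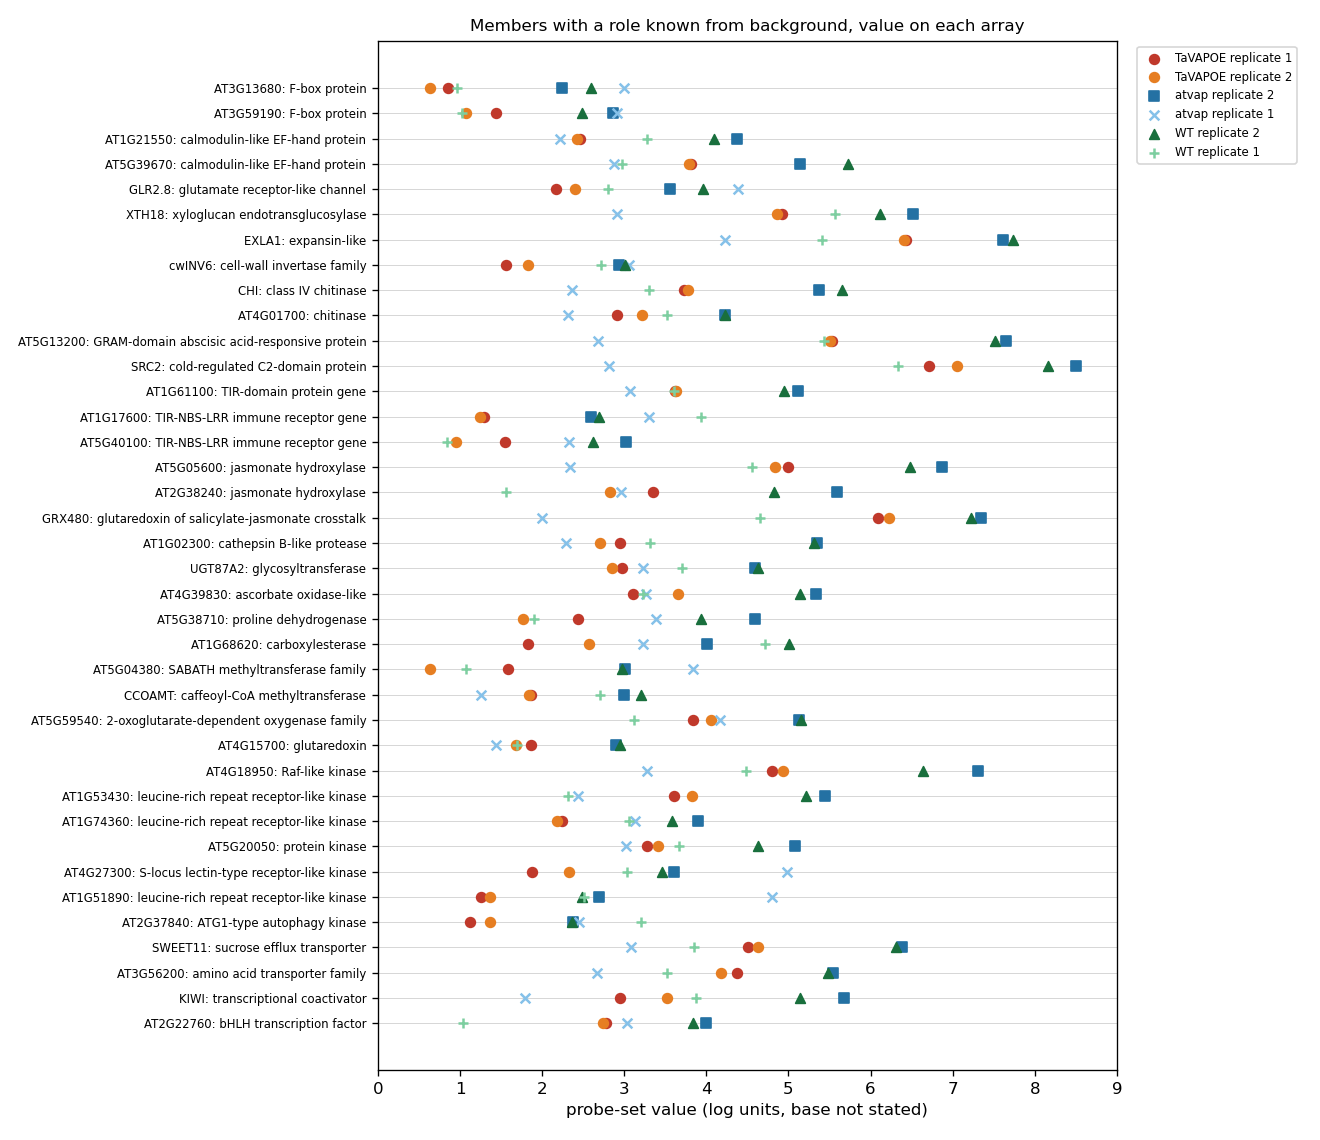
Value on each of the 6 arrays, in log units whose base is not stated, of the 38 members given a role here from background knowledge, 1 row per gene and 1 point per array, grouped by role. The other named members were not placed in a role group, and some may have known roles too. In every row the TaVAPOE circles lie left of atvap replicate 2 and WT replicate 2, by as much as 2.37 log units for AT1G02300, while WT replicate 1 is right of both circles in 17 rows, near the 41.4% of all probe sets.

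The lists of known response genes were too thinly named here to describe the members, since 8730 probe sets, 71 members among them, have no gene here. Of 63 genes on 10 lists, 12 had a probe set named with 1 gene here. Of these 12, 0 were members, which is near the whole array's 0.712%. Those 12 came from the cold, heat shock, jasmonate, glucosinolate and endoplasmic reticulum stress lists. The lists for abscisic acid and drought, salicylate defence, iron, phosphate and flowering time had no gene named in this way. Whether their genes are among the unnamed members is not known. The nearest of the 12 were 4 cold genes, with gaps of 0.54 for COR15A, 0.55 for COR15B, 0.65 for COR47 and 0.57 for LTI30. The symbols and synonyms of the gene table name few functions, and keywords placed 5 of the 88 genes in a class: CHI, UGT87A2, EXLA1, XTH18 and CCOAMT, a methyltransferase of lignin precursors. Of the 88 genes, 86 are protein coding and 2, AT1G40230 and AT4G10990, are pseudogenes in that table.

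WT replicate 1 gave the only further wild-type reading. It was compared with TaVAPOE values that the rule had asked to be low, so its shares are only partly independent of the rule. It lay above both TaVAPOE arrays for 85 of 162 members (52.5%), against 41.4% of all probe sets, and above them by at least 1 log unit for 33 (20.4%), against 20%. It lay below both for 60 members (37.0%), against 48.8%. The median of WT replicate 1 minus the higher TaVAPOE value was 0.09 log units over the members and -0.22 over all probe sets. By the stricter measure the members' share was thus near that of the whole array.

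This array read dim transcripts higher and bright ones lower than its partner: for probe sets at 5 log units or more (mean of atvap replicate 2 and WT replicate 2) its median difference from WT replicate 2 was -2.13 over the members and -2.09 over all. Below 3 log units that difference was -0.99 over the members and 0.47 over all. Agreement was therefore also read by the level in TaVAPOE. Where the TaVAPOE mean was below 2, WT replicate 1 was above both TaVAPOE arrays for 48 of 66 members (72.7%), against 76.9% of all probe sets at that level, and by at least 1 log unit for 26 (39.4%), against 50.4%. Between 2 and 4 it was above for 35 of 66 (53.0%), against 33.4%, and by at least 1 log unit for 7 (10.6%), against 7.19%. At 4 or more it was above for 2 of 30 (6.7%), against 1.88%, and by at least 1 log unit for 0, against 0.0874%. Its median distance from the higher TaVAPOE value was there -0.76 log units for members and -2.03 for all. The share above both TaVAPOE arrays was higher among members in the middle range and lower in the dim range. In the upper range it rested on 2 members, with 0 by at least 1 log unit. What part the array's discordance has in these shares was not tested.

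The other array outside the rule, atvap replicate 1, gave a like share, with the same limit. It was above both TaVAPOE arrays for 87 members (53.7%), against 48.4% of all probe sets, above them by at least 1 log unit for 48 (29.6%), against 22.6%, and below both for 61 (37.7%), against 43.1%. By level in TaVAPOE, it was above for 84.8%, 45.5% and 3.3% of members, against 88.8%, 40.2% and 1.16% of all probe sets. Both replicate 1 arrays were above both TaVAPOE arrays for 63 members (38.9%, against 31.1%), and both by at least 1 log unit for 19 members (11.7%, against 10.5%). The named genes among those 19 were AT1G44030, AT1G17600, AT5G15360, AT5G23030 (TET12, a tetraspanin), AT4G28290, AT1G51890, AT1G40230, AT3G16330, AT2G37840 and AT1G16290. In all 10 both TaVAPOE values were at most 2.42 log units.

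**Figure D3:**
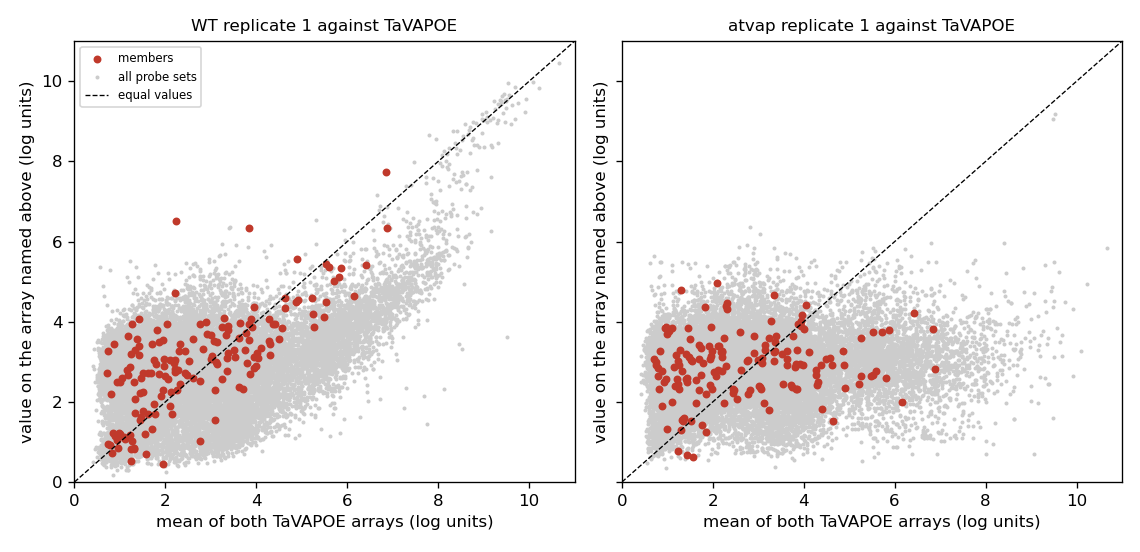
WT replicate 1 (left) and atvap replicate 1 (right) against the mean of both TaVAPOE arrays, in log units, 1 point per probe set, with the 162 members in red, all 22746 probe sets in grey and a dashed line of equal values. Left, dim members scatter around and above the line and most bright ones fall below it but above most grey points; AT3G48640 stands out at 6.51. Right, the values of atvap replicate 1 do not follow TaVAPOE.

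Between atvap and WT the limma calls below only describe the members, since the rule asked for high values on replicate 2 of both. In limma over 6 arrays 0 of 22746 probe sets (0.0%), and so 0 of 162 members, passed at an adjusted p of 0.05. At an unadjusted p under 0.05, 1 member was lower (0.356% of all probe sets were) and 0 were higher (0.602%); no other tool was run. In both directions together, 26 members (16.0%, against 13.2% of all probe sets) were under it without WT replicate 2 and 25 (15.4%, against 16.7%) without atvap replicate 2. In those fits 1 genotype has a lone array, which is assumed to vary like the others. The atvap minus WT difference was below 0 for 85 members (52.5%), against 49.7% of all probe sets, and its median was -0.02 log units over the members and 0.004 over all. On the arrays the rule used, atvap replicate 2 was above WT replicate 2 for 94 members (58.0%, against 51.0%). AT1G68620, at 4.01 on atvap replicate 2 and 5.01 on WT replicate 2, and AT3G16700, at 4.68 and 3.81 on the same arrays, were the named members that differed most in each direction.

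Over all 6 arrays the limma difference was below 0 for 156 members between TaVAPOE and WT (48.4% of all probe sets were) and for 142 between TaVAPOE and atvap (52.5%), comparisons that share the TaVAPOE arrays. The rule used both contrasts, so nothing is read from these counts. The median TaVAPOE minus WT difference was -0.91 log units over the members and 0.03 over all, and the median TaVAPOE minus atvap difference was -1.14 and -0.05. AT5G13200, with -0.95 ± 1.64 against WT and 0.36 ± 1.64 against atvap (limma, moderated SE), shows how far the replicate 1 arrays move a member's difference.

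A share of the member genes lay close to one another in the genome. Positions and gene order were read from the TAIR10.1 gene table, in which all 88 genes have a place. Measured genes are those with a probe set of 1 gene here, so the 71 unnamed members and the 3 with several genes were left out. With a window of 50 kb between gene starts, 14 member genes had another member nearby, in 6 places; after quantile normalization of the arrays, which leaves 112 members, 2 did. Of the 1155 measured neighbours of members in that window 18 were members (1.56%, each pair counted from both sides), against 0.666% of all measured genes. Within 10 kb, 2 of 207 neighbours were members (0.97%). Among the genes higher in TaVAPOE by the mirrored rule, 6 of 1011 neighbours within 50 kb were of their own set (0.59%, against 0.628%). The difference between these shares was not tested.

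AT4G10990 and AT4G11000 are direct neighbours in gene order. AT4G10990, the pseudogene, read 1.57 and 1.29 in TaVAPOE, 2.61 and 2.60 in atvap, and 1.55 and 2.90 in WT. With values raised to 1.66 its gap was 0.94. AT4G11000 read 3.92 and 3.90 in TaVAPOE, 2.96 and 6.17 in atvap, and 3.87 and 6.01 in WT. In both, WT replicate 1 did not lie above both TaVAPOE arrays. A place with 3 member genes held AT4G27300, AT4G27350 and AT4G27400, and another with 3 held AT3G55960, AT3G56060 and AT3G56200. AT4G27300, the lectin-type kinase gene, read 1.88 and 2.32 in TaVAPOE, 4.98 and 3.60 in atvap, and 3.03 and 3.45 in WT, while AT4G27350 read 4.25 and 4.34 in TaVAPOE, 2.43 and 5.59 in atvap, and 3.18 and 5.34 in WT. The groups of AT4G27300 did not overlap and those of AT4G27350 did. The other places held AT1G21520 with AT1G21550, AT3G05230 with AT3G05320, and AT3G48640 with SWEET11.

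**Figure D4:**
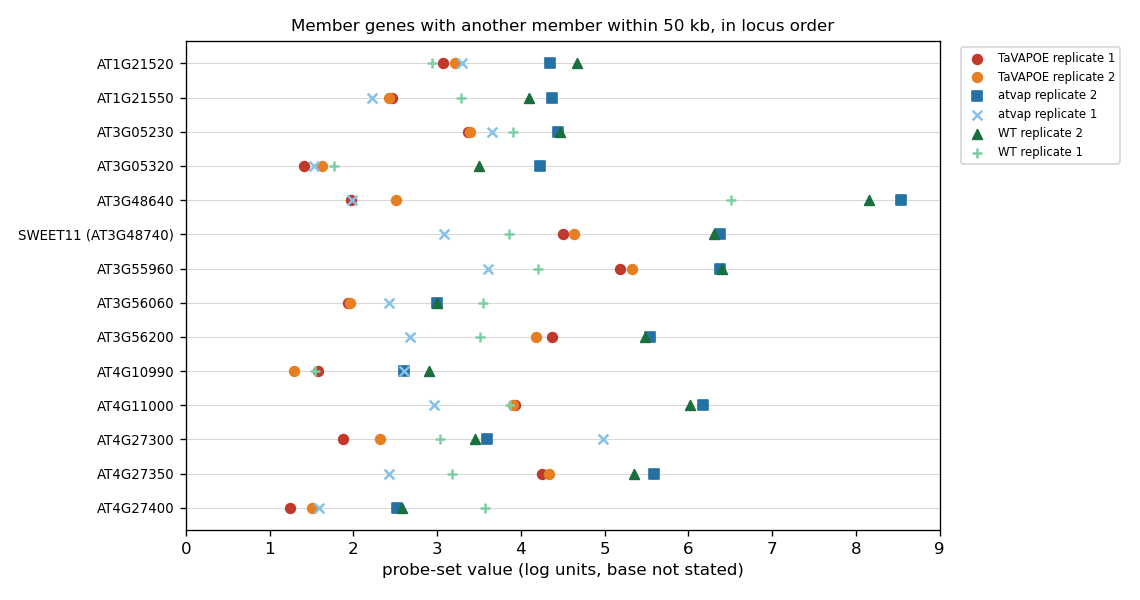
Value on each of the 6 arrays, in log units whose base is not stated, of the 14 member genes with another member within 50 kb, in locus order from the top, 1 point per array. In every row the TaVAPOE circles lie left of atvap replicate 2 and WT replicate 2, and neighbouring genes differ in level, as AT3G48640 and SWEET11 do.

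The neighbour of AT3G48640 went the opposite way. AT3G48650, the next gene in order, read 5.15 and 5.51 in TaVAPOE, 3.31 and 2.86 in atvap, and 2.49 and 2.21 in WT, so that both TaVAPOE arrays were the highest. Of the 8 measured genes within 50 kb of AT3G48640, AT3G48640 itself and SWEET11 were lower in TaVAPOE by the rule and AT3G48650 was higher. Over all members, 12 of the 1155 neighbours within 50 kb (1.04%) belonged to the genes higher in TaVAPOE, against 0.628% of all measured genes. CHI and AT2G43590, which is higher in TaVAPOE by the mirrored rule, have 1 gene between them. AT2G43590 read 5.00 and 5.42 in TaVAPOE, 3.58 and 2.99 in atvap, and 1.70 and 3.58 in WT.

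The member genes lay on all 5 chromosomes at like shares of the measured genes, between 0.553% on chromosome 2 and 0.724% on chromosome 4. Just inside the threshold were an unnamed probe set with a gap of 1.003, AT1G16290 and AT2G37840 with 1.004, GRX480 with 1.007 and AT4G27350 with 1.008. Just outside it, AT4G19200 had a gap of 0.99 and 4 unnamed probe sets had gaps between 0.989 and 0.999.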

How the data were processed

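RNA of whole seedlings was labelled with biotin and hybridised to Affymetrix arrays, per the labels' protocols, 2 arrays for each of 3 genotypes. Each deposited value is a score of 1 probe set, logarithmic with an unstated base. Per the submitters' processing notes the software was Agilent Feature Extraction, a program for another maker's arrays. In the sources used here, how probes were summarised and arrays normalized is not given. The number of arrays limits the precision.

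The 64 control probe sets were left out and values were used as deposited. limma 3.58.1 in R 4.3.3 was fitted to 6 arrays, with 3 genotype means and 3 residual degrees of freedom. It used Benjamini-Hochberg adjustment over 22746 probe sets. A run on simulated data had the same spread for every probe set and no discordant array, so it does not speak for these arrays. Nothing says whether replicates came from separate cultures, so p-values measure the spread between these arrays.

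Gene names came from the platform annotation and the RefSeq gene table of TAIR10.1, which matched 13436 of 13513 probe sets with 1 gene. No build is named for the data, so no coordinates are printed, and promoter motifs were not analysed here. Members, lists and tests were chosen with earlier results of these data known. Named are the 25 genes with the largest gaps, members within 50 kb of another, up to 4 per keyword class, list members, and the 5 probe sets nearest the threshold on each side. Roles come from background knowledge and were assigned after the values were seen, as were the other genes named, and so was the split by TaVAPOE level.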

Additional observations from a re-analysis of the deposited data

How the results depend on the processing

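The number of members depended on the threshold and the scale. It was 667 at 0.5 log units, 49 at 1.5, and 29 with 16 added on the linear scale (base 2 assumed), which shrinks differences between dim values; 33 remained when WT replicate 1 had to lie above by the same threshold. The rule without 1 of its 4 arrays took 272 to 598 probe sets, most without atvap replicate 2. Quantile normalization took 112, of which 108 were among the 162, and median centring, the 20th-percentile floor, the filter on low values and removal of the s_at and x_at classes took 169, 131, 117 and 152. The share with WT replicate 1 above both TaVAPOE arrays (52.5%) was 63.4% after quantile normalization, 31.0% with 16 added and 47.2% to 63.7% without 1 array. For atvap replicate 1 (53.7%) the share was 38.8% at 1.5 log units, 44.3% with the floor, 10.3% with 16 added, 42.7% with low values left out, and 46.9% to 77.9% without 1 array. No share over all probe sets was taken with changed values or arrays. The member shares there cannot be set against the 41.4% and 48.4% of all probe sets in the deposited values. Member genes with another within 50 kb (14) numbered 113 at 0.5 log units, 2 at 1.5, 2 after quantile normalization, 2 with 16 added, 9 with low values left out, and 27 to 123 without 1 array. Fewer or more members make part of these changes, and for quantile normalization, which kept 108 members, the cause was not tested. Between atvap and WT, where the rule used replicate 2 of both, 0 members passed in every limma fit run, also with the replicate number as a block (replicate block, 0 calls). The numbers do not pair the samples in the labels, and deviations of same-numbered arrays correlated at 0.58 between atvap and WT, 0.09 between TaVAPOE and atvap, and 0.01 between TaVAPOE and WT. In the fits without WT replicate 2 or without atvap replicate 2, the lone array left in a genotype is assumed to vary like the others. It is WT replicate 1 or atvap replicate 1, the arrays that correlated least with the rest. No count at an unadjusted p is read from those fits.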
